A study of Rattus norvegicus with 20 samples.

Results

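Chronic constriction injury (CCI), in which loose ties are placed around the sciatic nerve of a rat, was compared with sham surgery at 21 days in dorsal root ganglia, the clusters of sensory neuron cell bodies beside the spinal cord. The comparison holds 6 of the 20 samples of the series: 3 CCI samples (titled CC1 21d) and 3 sham samples, all at 21 days and all from the limb on the operated side, each read on 1 Affymetrix rat array. All probe sets other than the 59 array controls were compared, which left 8740 of 8799. The other samples, CCI and sham at 14 days, Seltzer ganglia at 14, 21 and 50 days and sham at 50 days, entered the estimate of the spread, and some are set beside the 21-day values. The labels describe the Seltzer samples as transection surgery, a second model of nerve injury. The sources used here do not give strain, sex, age, the number of animals behind a sample or the way ganglia were dissected. Whether replicates are separate animals is not stated either, so the spread behind each p-value may be technical.

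Sensory neurons whose axons are damaged switch on a regeneration programme. Transcription factors such as Atf3 and Jun are induced, peptides such as neuropeptide Y and galanin appear in cells that made little of them, growth-cone proteins are made, and several ion channels and transmitter-release proteins are reduced. Around the neurons lie satellite glia, Schwann cells and resident macrophages, which respond to the injury with antigen presentation and secreted signals. A ganglion is a mixed tissue, and in such bulk samples fewer cells of a type and less RNA per cell cannot be told apart.

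Values are deposited intensities on a linear scale, many of them below 0. The background level of an array was set from its own negative values, at the 95th percentile of their size. CCI replicate 1 stood apart, with a background level of 499 against 246 and 234 on CCI replicates 2 and 3, and 12.8% of its probe sets above that level against 18.8% and 20%. Over probe sets with a mean above 250 its log2 values correlated at 0.663 and 0.676 with the other CCI arrays, which correlated at 0.942 with each other. Sham replicate 1 had a background level of 318 and correlated at 0.836 and 0.825 with sham replicates 2 and 3, which correlated at 0.946. Its brightest values ran higher than theirs, as for Apoe, at 22916 against 3349 and 3535. The 3′ to middle ratio of the Gapdh control probe sets, a sign of RNA quality, was 1.78, 1.48 and 1.53 on the CCI arrays and 0.998, 1.27 and 1.32 on the sham arrays, so it was higher in every CCI array. The 3′ to 5′ ratio was 1.68, 1.89 and 1.91 against 3.10, 1.90 and 2.15, where the groups overlapped. The part of RNA quality in the results was not tested. Results are therefore given with and without CCI replicate 1, and calls lost without sham replicate 1 or another single array are given for the genes so tested. Markers of the labelled tissue were present: the nociceptor receptor gene P2rx3 averaged 959 ± 114 in CCI and 1169 ± 541 in sham ganglia (SD, n = 3 each), and the Schwann cell gene Prx averaged 2309 ± 396 and 3377 ± 871.

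At 21 days 81 of 8740 probe sets, or 0.927%, passed an adjusted p of 0.05 in the limma fit, 47 of them higher in CCI (0.538%) and 34 lower (0.389%). Of the 1978 probe sets with a mean above 250 in either group, 56 passed (2.83%), 34 higher (1.72%) and 22 lower (1.11%), and 42 genes with a single symbol lay among them. The groups did not overlap at any of those 56 probe sets, nor at 453 of all 1978 (22.9%). Without CCI replicate 1 the counts were 65 of 8740 (0.744%) and 49 of 1817 above 250 (2.7%). All 81 kept their sign without that array, and 38 of the 56 brighter ones stayed past the threshold. The spread was estimated over all 20 arrays. With only the 6 arrays compared in the fit, 13 probe sets passed, 8 of them above 250, and among the named genes called in the full fit Atf3, RT1-Da, Vamp1, Acta1, Snap25 and Nptx1 were called.

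**Figure D1:**
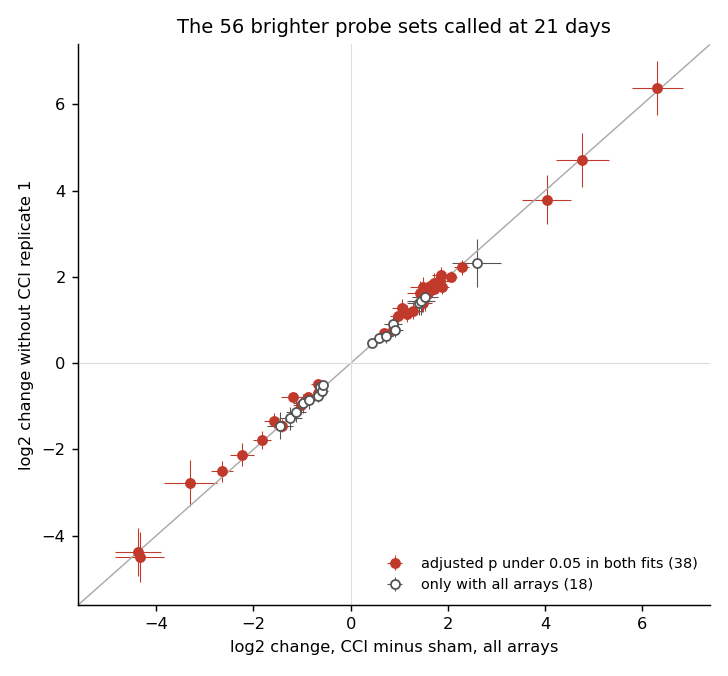
The log2 change, CCI minus sham, of the 56 probe sets above 250 that passed at 21 days, fitted with all arrays (horizontal) and without CCI replicate 1 (vertical), with standard errors as bars; the line marks equal values. Filled points, 38 of them, passed in both fits, open points, 18 of them, passed with all arrays only, and no point changed sign.

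The largest rises were those of injury-induced neuropeptides. Npy, which encodes neuropeptide Y, read 1999, 2636 and 2067 on CCI replicates 1, 2 and 3, against 61.4, 2.05 and -18.2 on the sham arrays. Every CCI array was far above background and no sham array was, so the groups were far apart. The rise was 6.31 on the log2 scale (SE 0.53, limma adjusted p = 4.45e-05), at least 9.69-fold. Without CCI replicate 1 it was 6.38 (adjusted p = 0.000294), at least 10.2-fold.

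Gal, which encodes the peptide galanin, read 1391, 1293 and 1237 in CCI against -11.3, 58.9 and 81.1 in sham ganglia. The 3 CCI arrays lay close together, and Gal was above background on none of the sham arrays. The rise was 4.76 (SE 0.546, limma adjusted p = 0.000479), at least 5.71-fold, and 4.71 without CCI replicate 1 (adjusted p = 0.00264). Vgf, a secreted precursor of neuronal peptides, read 674, 1103 and 1373 against 262, 296 and 545. Its lowest CCI array, replicate 1, was still above the highest sham array. The rise of 1.49 (SE 0.26, adjusted p = 0.0155) was at least 2.71-fold, and it came to 1.77 without CCI replicate 1 (adjusted p = 0.00264). That call was lost without CCI replicate 3 (adjusted p = 0.0522), sham replicate 1 (0.0681) or sham replicate 2 (0.063). Adcyap1, which encodes the peptide PACAP, rose by 1.60 on 1 of its 3 probe sets (adjusted p = 0.000808), at least 1.81-fold, while the other two had log2 changes of 1.55 (adjusted p = 0.124) and -0.16 (adjusted p = 0.827).

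Of 25 measured genes for neuropeptides and other secreted neuronal peptides, 4 rose (Npy, Gal, Vgf and Vip) and none fell, where 0.612% of all 4736 genes rose and 0.443% fell. Leaving out CCI replicate 1 left 3 rises in the list, and leaving out sham replicate 1 left 2. The median change was -0.01 on the log2 scale, against 0.04 over all genes, and 14 of the 25 were negative. Vip, which encodes vasoactive intestinal peptide, was below background on all 6 arrays, with a change of 2.30 (adjusted p = 0.0168) that did not pass without CCI replicate 1 (1.87, adjusted p = 0.0536). Its call was also lost without sham replicate 1 (0.0767) or sham replicate 3 (0.0734). Sst, for somatostatin, averaged 157 ± 72.6 in CCI and 587 ± 59.4 in sham ganglia and did not pass (log2 change -1.90, adjusted p = 0.288). With values below 200 set to 200 its change was -1.53 and passed (adjusted p = 0.000254). Calca and Tac1, which encode the pain-related peptides CGRP and substance P, were bright and did not pass on any probe set. The brighter Calca probe set read 2110, 1115 and 1255 in CCI against 734, 1946 and 1893 in sham ganglia (log2 change 0.04, adjusted p = 1). That of Tac1 read 1969, 1249 and 1447 against 1108, 2312 and 2093 (-0.20, adjusted p = 0.825). For both, replicate 1 was the highest of the CCI arrays and the lowest of the sham arrays.

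Injury-induced transcription factors rose as well. Atf3, a stress factor that marks axotomised neurons, read 933, 817 and 865 in CCI against 183, 159 and 160 in sham ganglia. The values within each group differed little, and no sham array reached its background level. The rise was 2.28 (SE 0.153, limma adjusted p = 5.92e-06), at least 3.80-fold, and 2.23 without CCI replicate 1 (adjusted p = 5.66e-05). Jun, an AP-1 subunit, read 221, 273 and 272 against 54.4, 50.5 and 93.3 on the probe set that passed (1.76, adjusted p = 0.000184), at least 1.11-fold. With values below 200 set to 200 the change of Jun was 0.35 and did not pass (adjusted p = 0.262). Its remaining 3 probe sets were also positive, by 0.73 to 2.37, and did not pass. Fos, another AP-1 subunit, averaged 286 ± 52.6 and 151 ± 60.7 on 1 probe set and did not pass (0.91, adjusted p = 0.164). Its other probe sets had log2 changes of -1.66 (adjusted p = 0.13) and 0.73 (adjusted p = 0.879).

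Gadd45a, a growth-arrest gene induced by stress, averaged 569 ± 225 in CCI and 91.3 ± 68.5 in sham ganglia. All 4 of its probe sets were positive and 3 passed, the brightest with a change of 2.59 (adjusted p = 0.0283), at least 2.35-fold. None of the 3 passed without CCI replicate 1, where the adjusted p of the brightest was 0.116. That call was also lost without CCI replicate 2 (0.0659), sham replicate 1 (0.0954) or sham replicate 2 (0.0717).

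Growth and receptor genes formed the next group. Gap43, a protein of growth cones, read 2799, 2552 and 3036 in CCI against 657, 1402 and 1223 in sham ganglia. The sham arrays differed among themselves, with replicate 1 the lowest, but none reached the CCI values. It rose by 1.41 (SE 0.25, limma adjusted p = 0.0168), 2.68-fold. The size stayed at 1.40 without CCI replicate 1, where the adjusted p was 0.0563, and the adjusted p was 0.0544 without CCI replicate 3. Gfra1, the receptor subunit that binds the neurotrophic factor GDNF, read 501, 287 and 317 against -4.46, 30.7 and -1.28 on the probe set that passed. It rose by 4.03 (adjusted p = 0.00107), at least 1.56-fold, and its dimmer probe set had a log2 change of 0.67 (adjusted p = 0.322). With values below 200 set to 200 the rise of Gfra1 was 0.84 and did not pass (adjusted p = 0.158). Ret, the signalling partner of that receptor, gave opposite signs: 1 dim probe set fell by 1.46 (adjusted p = 0.0181, and 0.0629 without CCI replicate 1), while its brightest averaged 1162 ± 139 and 951 ± 9.68 (0.28, adjusted p = 0.309). The call of the dim probe set was also lost without CCI replicate 3 (0.0597), sham replicate 2 (0.0717) or sham replicate 3 (0.0668).

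In the list of 52 measured axotomy and regeneration genes, 9 rose and none fell (Npy, Gal, Vip, Vgf, Atf3, Gap43, Gadd45a, Cacna2d1 and Reg3b). The list's median change was 0.57, against 0.04 over all genes, and 39 members were positive. Of the 52, 27 were above background on no array of the 6. Over all 4736 genes 0.612% rose and 2466 were positive. Without CCI replicate 1 there were 7 (Gap43, Vip and Gadd45a lost, the small heat shock protein gene Hspb1 gained), against 0.486% of all genes, and without CCI replicate 3 or sham replicate 1 there were 6. The count was 1 with only the 6 arrays in the fit and 6 with arrays centred on their medians, none of them falls. Hspb1 averaged 4349 ± 950 and 2878 ± 34.4 (0.57, adjusted p = 0.215), and passed without CCI replicate 1 (0.76, adjusted p = 0.0474). The lectin gene Reg3b passed as higher (2.25, adjusted p = 0.0155) at values below background on all 6 arrays. Tubb2b, a tubulin of growing axons, averaged 7430 ± 1565 and 3450 ± 337 and did not pass (1.09, adjusted p = 0.0938). The brightest probe set of Sprr1a, a gene linked to axon growth, averaged 1396 and 1483 (-0.06, adjusted p = 1).

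**Figure D2:**
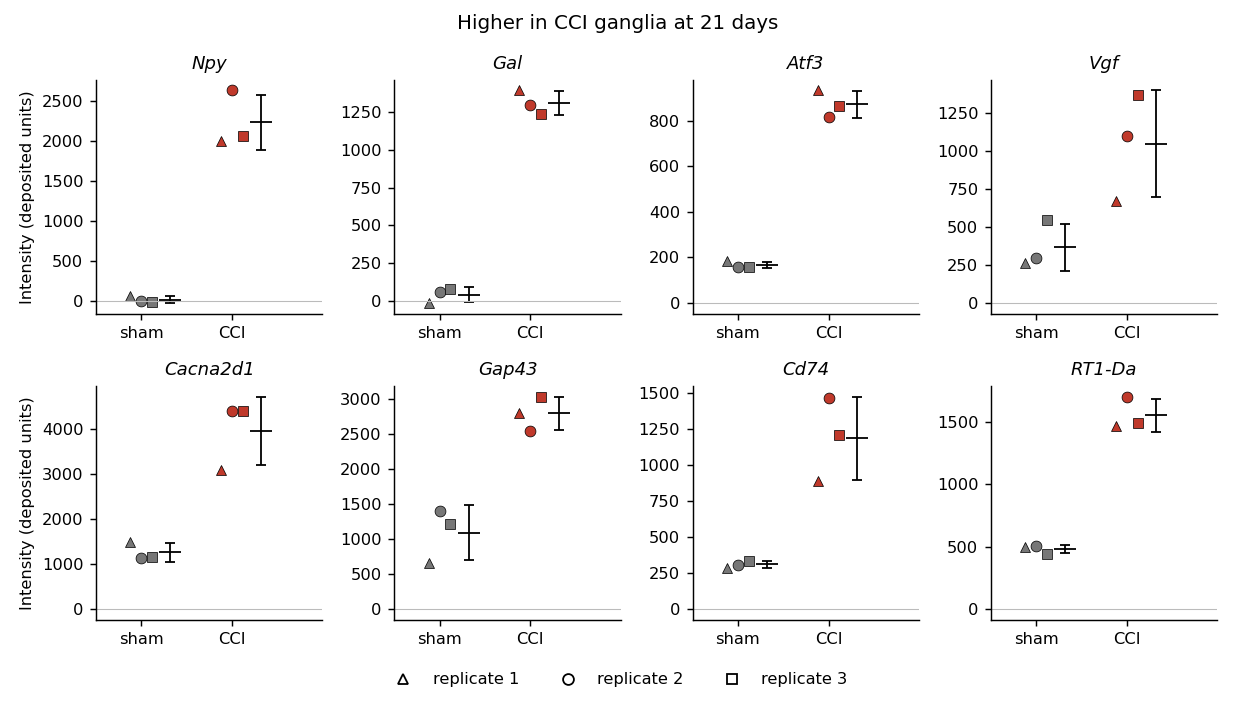
Intensity of 8 genes higher in CCI ganglia at 21 days, for 3 sham and 3 CCI arrays each, with symbols for the replicate numbers and the mean ± SD beside the points; the vertical axes differ and include 0. In no panel do the groups overlap, and the sham arrays of Npy and Gal lie near 0.

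The upstream sequences of these rising genes were searched because Jun and Atf3 act at AP-1 and cyclic-AMP response (CRE) motifs. Of the 13 genes of a fixed set that rose, 10 had promoter entries in the RefSeq tables used here (GRCr8). Those tables held none for Atf3, Gap43 and Jun, which were not searched. In the 250 bases before the start, the AP-1 motif TGANTCA lay on neither strand of any of the 10, and 6.34% of the 33469 windows of that length over all genes hold it. The CRE motif TGACGTCA, which shares the end letters TGA and TCA with the AP-1 motif, lay before 1 of the 10, Vgf, and in 1.59% of all windows. The Vgf window, chr12:25277021-25277270 on the minus strand, is shown because it holds that match, which starts 90 bases before the transcription start and is in capitals.
Vgf: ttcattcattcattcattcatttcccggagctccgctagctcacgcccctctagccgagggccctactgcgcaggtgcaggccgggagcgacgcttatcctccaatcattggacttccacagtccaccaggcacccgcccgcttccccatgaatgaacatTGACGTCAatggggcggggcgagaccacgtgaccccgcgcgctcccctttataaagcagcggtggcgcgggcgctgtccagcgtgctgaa
The match is a description of the letters in this window, and binding was not measured.

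Among ion channel genes a single calcium channel subunit rose. Cacna2d1 encodes the alpha2delta-1 subunit, which carries calcium channels to the membrane and binds gabapentin. It read 3096, 4409 and 4415 in CCI against 1497, 1139 and 1154 in sham ganglia. CCI replicate 1 was the lowest of the injured arrays and still lay above every sham array. The rise was 1.63 (SE 0.147, limma adjusted p = 8.06e-05), 3.13-fold, and 1.80 without that array (adjusted p = 3.5e-05), 3.52-fold. It was the 1 gene called of 14 measured for calcium channels, whose median change was 0.32, where 0.612% of all 4736 genes rose.

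Sodium channel genes gave no call in 10 measured members in the limma fit, where 4 had an unadjusted p under 0.05, 2 of them higher and 2 lower. Over all 8740 probe sets 1071 had an unadjusted p under 0.05 in that fit, and the list counts at that level are to be read against this. Scn11a, the Nav1.9 channel of nociceptors, read 563, 546 and 615 in CCI against 1202, 895 and 908 in sham ganglia. These values did not overlap, and the change of -0.77 (SE 0.196) had an adjusted p of 0.113, and of 0.261 without CCI replicate 1. Scn10a, the Nav1.8 channel, averaged 227 ± 73.9 and 351 ± 23.8 (-0.65, adjusted p = 0.307). At 14 days both passed, by -1.44 (adjusted p = 0.00231) and -1.47 (adjusted p = 0.00671), and the differences between the days did not (adjusted p = 0.414 and 0.388). Scn9a, for the Nav1.7 channel, averaged 327 ± 55.3 and 315 ± 47.6 on its brighter probe set (0.05, adjusted p = 1), above background on 2 of 3 arrays in each group.

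Of 37 measured potassium channel genes, 2 fell, where 0.443% of all 4736 genes fell. Kcnab2, a beta subunit that associates with Kv1 channels in axons, read 545, 831 and 801 against 1155, 1164 and 1148. CCI replicate 1 was the lowest, and the fall of 0.68 on the log2 scale (adjusted p = 0.0283, 1.62-fold) was 0.49 in size without it (adjusted p = 0.0238). Leaving out sham replicate 1, 2 or 3 ended that call (adjusted p = 0.0849, 0.0806 and 0.0803). With sham replicate 1, 2 or 3 left out, no gene of the list was called. Kcns1, a modulatory Kv subunit, was under 250 in both groups and its change of -2.52 (adjusted p = 0.0348) did not pass without CCI replicate 1 (0.0735). It was also the 1 gene called among 23 measured nociceptor markers, whose median change was -0.19, where 0.443% of all genes fell. P2rx3 and the capsaicin receptor gene Trpv1 had log2 changes of -0.19 (adjusted p = 0.801) and 0.22 (adjusted p = 0.922). None of 57 measured transmitter and peptide receptor genes and none of 25 neurotrophic factor and receptor genes passed in limma's test, with 8 and 6 at an unadjusted p under 0.05. The list of neurotrophic genes counts Gfra1 and Ret by other probe sets than those called above. Without CCI replicate 1, Gabbr2 of the GABA-B receptor fell by 0.64 (adjusted p = 0.0361) and Bdkrb2 was called at values below background.

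Among transmitter release genes Vamp1 and Snap25 fell. Vamp1, synaptobrevin 1 of synaptic vesicles, read -1.84, -44 and -47.8 on 1 of its 2 probe sets in CCI against 368, 266 and 326 in sham ganglia. It was above background on every sham array and no CCI array. The fall was 4.38 on the log2 scale (SE 0.474, limma adjusted p = 0.000313). Set against the CCI background levels, the highest of which is that of replicate 1, it was at least 1.04-fold, and at least 1.32-fold without that array. Its second probe set averaged 117 ± 155 and 324 ± 75.4 and did not pass (-1.85, adjusted p = 0.364).

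Snap25, the release protein that pairs with it, read 423, 445 and 479 against 911, 903 and 968. The groups were tight and well apart. The fall of 1.02 (SE 0.17, adjusted p = 0.0107) was at least 1.96-fold, and was 0.98 without CCI replicate 1 (adjusted p = 0.0461). A second of its 4 probe sets also fell, by 0.68 (adjusted p = 0.0377, and 0.0563 without that array). Stx1a, the syntaxin of the same complex, went the other way, at 441 ± 76.9 against 231 ± 61 (0.91, adjusted p = 0.0191, and 0.0806 without CCI replicate 1). The list of 26 measured vesicle and release genes does not hold Vamp1 among its calls because the brighter Vamp1 probe set did not pass. In that list 1 rose, 1 fell, 18 were negative and the median was -0.20, where 0.612% of all genes rose and 0.443% fell. The lower call there is that of the second Snap25 probe set, and it was lost when any 1 of the 6 arrays was left out.

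Nefh, a marker of large sensory neurons, and the creatine kinase gene Ckmt1 were lower. Nefh, which encodes the heavy neurofilament, read 598, 592 and 576 in CCI against 1215, 1024 and 993 in sham ganglia on the probe set that passed, a fall of 0.85 (adjusted p = 0.0284), 1.82-fold. Without CCI replicate 1 the size was the same to within 0.01 and the adjusted p was 0.0843, and leaving out any other of the 6 arrays also ended the call (adjusted p = 0.0615 to 0.117). Its brighter probe set averaged 5916 ± 430 and 5206 ± 3047 (0.33, adjusted p = 0.751). No gene of the 16 measured for axonal cytoskeleton was called by limma on its brightest probe set, and 4 had an unadjusted p under 0.05. Ckmt1, a mitochondrial creatine kinase, averaged 645 ± 33.7 and 1556 ± 209 and fell by 1.24 (adjusted p = 0.0226), 2.40-fold, with both probe sets called. That call was lost when any 1 of the 6 arrays was left out (adjusted p = 0.0515 to 0.084).

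Further falls named by size were those of Tesc, Gpx4, Nptx1 and Fbxo2. Tesc, which encodes the calcium-binding protein tescalcin, read 47.5, 58.4 and 71 against 521, 266 and 264, with every CCI array below background. The fall was 2.23 (adjusted p = 0.00032), at least 1.08-fold. With values below 200 set to 200 the change of Tesc was -0.73 and did not pass (adjusted p = 0.158). Gpx4, which repairs oxidised membrane lipids, averaged 636 ± 70.4 and 1177 ± 155 and fell by 0.87 (adjusted p = 0.00136), 1.85-fold. Nptx1, a secreted pentraxin of synapses, read 502, 513 and 472 against 797, 817 and 776, a fall of 0.67 (adjusted p = 0.00259), 1.61-fold, with both groups spanning little. Fbxo2, a ubiquitin ligase subunit for glycoproteins, fell by 0.63 (adjusted p = 0.0283), and did not pass without CCI replicate 1 (0.114), CCI replicate 3 (0.0709), sham replicate 1 (0.111) or sham replicate 3 (0.0747).

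Genes of antigen presentation to helper T cells rose. Cd74, the invariant chain that escorts MHC class II molecules, read 886, 1460 and 1210 in CCI against 288, 306 and 336 in sham ganglia. CCI replicate 1 was the lowest injured array, and no values overlapped. The rise was 1.86 (SE 0.182, limma adjusted p = 0.000146), at least 3.63-fold, and 2.05 without that array (adjusted p = 9.37e-05). This was the 1 of 4 Cd74 probe sets that passed. The others had log2 changes of 2.76 (adjusted p = 0.124), 1.29 (adjusted p = 0.48) and 0. RT1-Da, a class II alpha chain, read 1470, 1705 and 1489 against 495, 503 and 442. Each group was tight, and the rise of 1.66 (SE 0.172, adjusted p = 0.000209) was 3.24-fold. The other RT1-Da probe set averaged 336 ± 14.4 and 195 ± 155 and did not pass (0.99, adjusted p = 0.307).

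Ctss, cathepsin S, which trims the invariant chain, read 430, 385 and 318 against 153, 128 and 96.1. It rose by 1.48 (adjusted p = 0.000842), at least 1.64-fold, and was above background on no sham array. These 3 were the genes called of 13 measured for class II presentation, with a median of 0.49 and 10 positive. Of the 13, 6 were above background on no array of the 6. Over all 4736 genes 0.612% rose and 2466 were positive. The same 3 were called without CCI replicate 1, with a median of 0.47. Class I and immunoproteasome genes gave no call by limma in 12 measured members (median 0.28, with 2 at an unadjusted p under 0.05). Interferon-response genes gave none in 15, with 14 positive, a median of 0.49 and 6 at an unadjusted p under 0.05, all higher. Of these 15 genes, 11 were above background on no array of the 6. Leaving out CCI replicate 2 gave 2 interferon calls, and leaving out CCI replicate 3 gave 1. Ifitm3, an interferon-induced membrane protein, averaged 304 ± 55.3 and 196 ± 21 (0.59, adjusted p = 0.0664).

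Markers of immune cells gave few calls. Of 20 measured macrophage and complement genes 3 rose, Ctss among them, with a median of 0.29, where 0.612% of all 4736 genes rose. Of the 20, 12 were above background on no array of the 6. Lyz2, the lysozyme of macrophages, read 2231, 2510 and 1930 against 684, 1166 and 634, a rise of 1.45 (adjusted p = 0.0307), 2.77-fold. That call was lost without CCI replicate 1 (0.0975), 2 (0.0835) or 3 (0.0535) and without sham replicate 1 (0.118) or 3 (0.109). Ccl2, a chemokine that draws monocytes, read 366, 412 and 530 against 221, 215 and 195 and rose by 0.98 (adjusted p = 0.0102), at least 1.82-fold. The summed intensity of the macrophage list spanned 12966 to 16213 in CCI and 7793 to 27379 in sham ganglia, the upper sham value resting on the Apoe reading of replicate 1. None of 19 T, B and mast cell markers passed in limma's test, 1 had an unadjusted p under 0.05, and 18 were above background on no array. The part of immune cell number in the rise of class II genes was not tested.

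Glial, vascular and connective tissue lists held no call in the limma fit with all arrays. Their medians were -0.28 over 12 satellite glia genes, -0.35 over 12 of myelinating Schwann cells, 0 over 9 of repair Schwann cells, 0.11 over 31 of matrix and proteases, 0.24 over 11 of endothelium and pericytes, -0.02 over 12 of fat cells and -0.03 over 6 of red blood cells. At an unadjusted p under 0.05 these lists held 1, 5, 5, 6, 1, 2 and 0 genes in that order, where 1071 of all 8740 probe sets lay under it. Genes of cell upkeep gave no call either, with medians of 0.13 over 37 cytosolic ribosomal proteins, -0.19 over 35 of oxidative phosphorylation, -0.08 over 25 of heat shock and chaperones and 0.21 over 16 of cholesterol synthesis. Their counts at an unadjusted p under 0.05 were 5, 7, 6 and 1, and all 7 of oxidative phosphorylation were lower in CCI. Mbp, a myelin protein, averaged 1281 ± 317 and 2003 ± 455 (-0.65, adjusted p = 0.243), and Pmp22, another, 9793 and 7837 (0.40, adjusted p = 0.614). A miss of the threshold with 3 arrays a group does not show that these genes were equal.

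Skeletal muscle genes, which ganglia are not known for, were among the falls. Ckm, the muscle creatine kinase, read 39.9, 8.39 and 50.8 in CCI against 1372, 707 and 735 in sham ganglia, below background on every CCI array. Its fall was 4.34 (SE 0.506, limma adjusted p = 0.000521), at least 2.92-fold. Acta1, skeletal actin, read 421, 497 and 434 against 1383, 1803 and 1741. The groups did not overlap for either gene, and the fall of Acta1 was 1.82 (SE 0.186, adjusted p = 0.000184), at least 3.43-fold.

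Tpm1, a tropomyosin, averaged 632 ± 234 and 1851 ± 297 on the probe set that passed and fell by 1.58 (adjusted p = 0.00136). Its 5 probe sets were all negative, and 2 of them passed without CCI replicate 1. Myl11, a fast myosin light chain, fell by 3.30 (adjusted p = 0.0105), at least 1.03-fold, on a probe set above background on no CCI array. With values below 200 set to 200 its change was -0.66 and did not pass (adjusted p = 0.793). The other Myl11 probe set averaged 117 ± 89.2 and 284 ± 80.6 and did not pass (-1.35, adjusted p = 0.381). Pvalb, parvalbumin, which both fast muscle and muscle-sensing neurons make, read 125, 293 and 323 against 519, 561 and 549 (-1.19, adjusted p = 0.0349), and was not called without sham replicate 1 (0.0949), 2 (0.0996) or 3 (0.0988). Of 30 measured muscle genes 4 fell, and 6 without CCI replicate 1, when the calcium pump gene Atp2a1 and the fast myosin gene Myh4 were added, where 0.317% of all genes fell. The list's median was -0.25, and -0.57 without that array, while its summed intensity was 5001 to 8302 in CCI and 10140 to 12228 in sham ganglia. The highest CCI sum was that of replicate 1, 12 of the 30 genes were above background on no array, and 13 were positive. Where this muscle RNA came from was not tested.

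**Figure D3:**
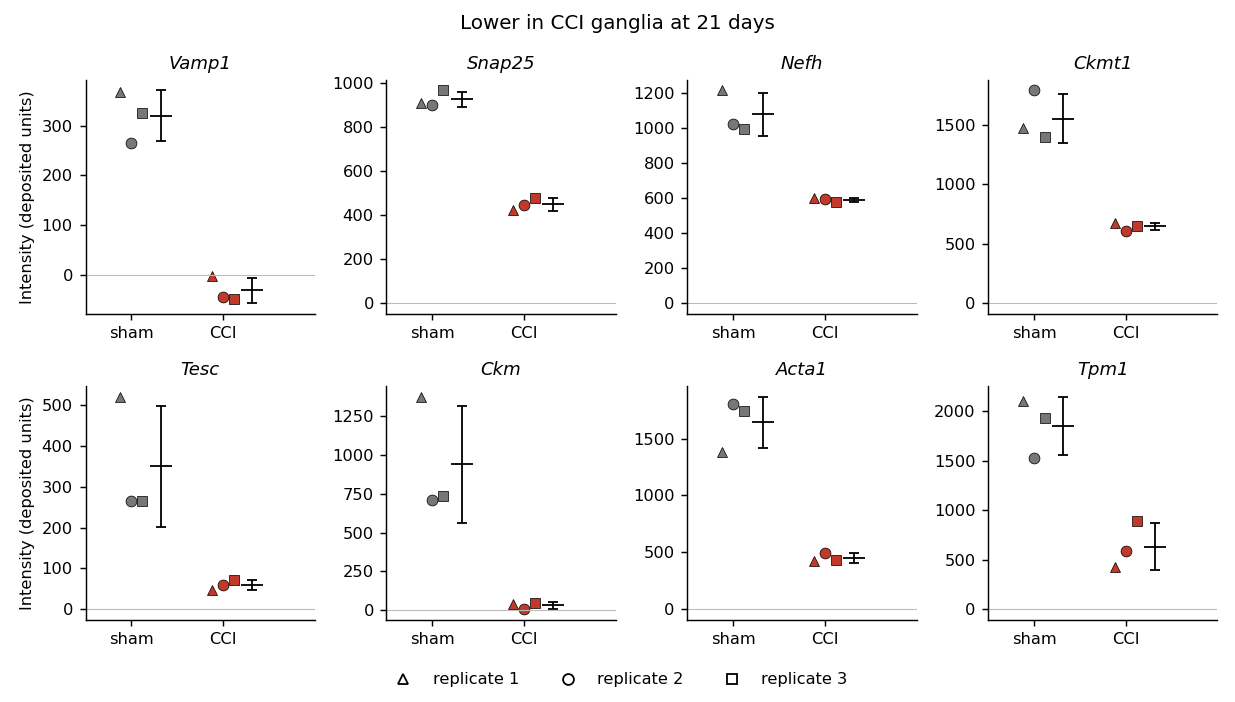
Intensity of 8 genes lower in CCI ganglia at 21 days, drawn as for the genes that were higher. Vamp1 lies below 0 on every CCI array, Ckm lies at 50.8 or lower there, and no panel shows an overlap of the groups.

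Some brighter genes passed only without CCI replicate 1, where that array's values lay apart. Anxa5, a phospholipid-binding annexin, read -24.1, 428 and 372 in CCI against 720, 767 and 807 in sham ganglia, and fell by 0.91 without replicate 1 (adjusted p = 0.00129) against a change of -2.47 (adjusted p = 0.303) with it. Its brighter probe set averaged 2700 ± 256 and 3173 ± 208 and did not pass (-0.16 without replicate 1, adjusted p = 0.769). Atp2a1 read -73.1, 115 and 114 against 404, 487 and 345, and fell by 1.70 without it (adjusted p = 0.000294). In both, the change was larger and did not pass with that array. Gas7, a growth-arrest gene of neurite outgrowth, rose by 0.65 (adjusted p = 0.0152) on 1 of its 3 probe sets, the translation factor gene Eef1a1 rose by 0.67 (adjusted p = 0.0238), and Resp18, of secretory granules, fell by 0.62 (adjusted p = 0.0238) without it. For the latter 2 the groups overlapped when all arrays were counted.

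A block of probe sets without a gene symbol rose together, and was picked out after the values were seen. The names of 12 such probe sets carry 3 source sequences (M13100, X05472 and X53581), each picked because several of its probe sets were called, and 8 of the 12 were higher in CCI, by 1.06 to 2.06 on the log2 scale. X53581cds#3_f_at read 2511, 2475 and 2645 in CCI against 795, 778 and 720 in sham ganglia (1.71, SE 0.0841, limma adjusted p = 3.96e-07). M13100cds#4_f_at read 1714, 1682 and 1472 against 294, 402 and 454 (2.06, adjusted p = 2.15e-06). Probe sets that share a source sequence can read the same RNA, so the 8 are not 8 independent genes. Probe sets named Crp and Rpl19l4 in the platform table, which rose by 1.72 (adjusted p = 0.00136) and 1.47 (adjusted p = 0.00562), followed the mean of the block over the 20 arrays (Pearson's r = 0.923 and 0.927, a description over arrays that share scaling and groups). A probe set of Crp, the liver C-reactive protein, outside that family averaged -10.1 ± 66.1 and 26.7 ± 12.9, near 0, so those names rest on the table alone.

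The other called genes above 250, given to complete the list, were Camk2d (1.15), Prrc2c (1.29), Txnrd1 (0.87), Srsf2 (0.87), Colq (0.73), Ptp4a1 (0.69), Idh1 (0.58) and Pafah1b1 (0.43) on the higher side and Rnf157 (-0.59) on the lower, as log2 changes. Camk2d is a subunit of a calcium-dependent kinase, Txnrd1 keeps thioredoxin reduced, and Srsf2 is a splicing factor. Ptp4a1, a phosphatase, was the tightest of them, at 787, 795 and 815 in CCI against 517, 507 and 449 in sham ganglia (adjusted p = 0.000146). Colq, Txnrd1, Idh1, Pafah1b1 and Rnf157 did not pass without CCI replicate 1 (adjusted p = 0.115, 0.113, 0.0598, 0.0601 and 0.0536).

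CCI at 14 days against its own sham arrays (3 and 2) shows which of these changes were already present. Of the 56 probe sets, 17 passed at 14 days in the same direction and 14 in the opposite one, where 2.78% of all probe sets passed at 14 days. Npy, Gal, Atf3, Vgf, Cacna2d1, Cd74, RT1-Da, Ctss, Adcyap1 and Snap25 were among the former. Atf3 changed by the same 2.28 on both days. Cacna2d1 had risen by 2.53 at 14 days (3553 ± 414, n = 3, against 601 ± 39.7, n = 2), and the smaller rise at 21 days did not differ from it past the threshold (-0.89, SE 0.22, adjusted p = 0.0676).

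The effect differed between the days at 24 of the 56 (42.9%) and at 157 of all 8740 (1.8%). Jun was the injury factor whose effect was larger at 21 days (by 1.15, SE 0.267, limma adjusted p = 0.0495). It averaged 253 at 14 days and 255 at 21 days in CCI, and 161 and 66 in sham ganglia, so the sham values moved. The part of the sham groups in this difference was not tested. Muscle genes changed sign between the days. Acta1 was 4080 ± 299 in CCI and 1707 ± 231 in sham ganglia at 14 days, the reverse of 21 days. Its effects differed by -3.08 (adjusted p = 2.96e-05). Ckm was 1643 ± 141 and 493 ± 52.6 at 14 days (difference -6.04, adjusted p = 0.000579). The rise at 14 days passed for Acta1 (1.25, adjusted p = 0.00401) and Myl11 (2.58, adjusted p = 0.0428). It did not pass for Ckm (1.71, adjusted p = 0.19), Tpm1 (0.92, adjusted p = 0.0566) or Pvalb (0.25, adjusted p = 0.969). The probe sets of the 3 source sequences turned the other way, since all 12 were negative at 14 days and 7 of those passed as lower. X53581cds#3_f_at was 766 ± 29.3 in CCI and 1862 ± 148 in sham ganglia at 14 days, and its effects differed by 2.98 (adjusted p = 6.46e-08). Srsf2 and Prrc2c also turned, having fallen at 14 days by 2.17 and 1.02. Srsf2 averaged 201 at 14 days and 300 at 21 days in CCI, and 956 and 158 in sham ganglia. Prrc2c averaged 217 and 441 in CCI, and 456 and 172 in sham ganglia.

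**Figure D4:**
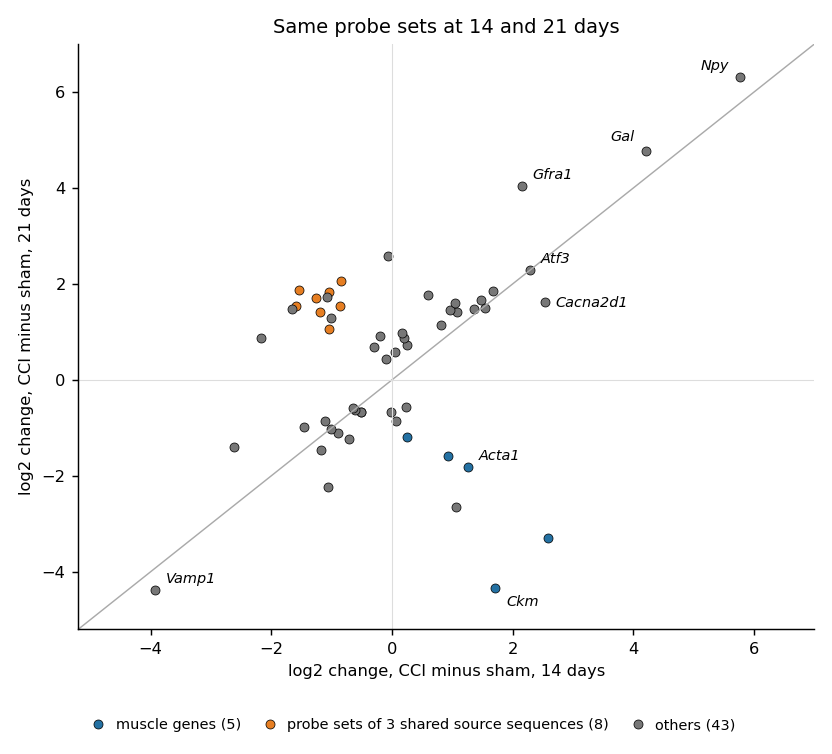
The log2 change, CCI minus sham, of the 56 probe sets above 250 that passed at 21 days, at 14 days (horizontal) and 21 days (vertical); the line marks equal values. Npy, Gal, Atf3 and Vamp1 lie near the line, while 5 muscle gene probe sets and 8 of the shared source sequences lie in the quadrants of opposite sign.

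Seltzer ganglia of the same day were compared with CCI directly, which leaves the sham arrays out of the difference. Only 10 of 8740 probe sets passed (0.114%), 2 higher (0.0229%) and 8 lower in CCI (0.0915%), and 17 without CCI replicate 1 (0.195%). Npy, at 2467, 1171 and 995 in Seltzer ganglia, overlapped the CCI values (0.63, SE 0.53, adjusted p = 0.718). Gal averaged 497 ± 50.6 there, below every CCI array, with a difference of 1.37 (SE 0.546, adjusted p = 0.466). Cacna2d1, at 2229 ± 231, was also below every CCI array (0.82, SE 0.147, adjusted p = 0.0505), and Vamp1 differed by -2.68 (adjusted p = 0.0505).

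The muscle genes Acta1 (-1.20), Ckm (-3.17), Tpm1 (-1.28) and Myh6 (-2.61) were 4 of the 8 that were lower in CCI than in Seltzer ganglia. Fn1, the matrix protein fibronectin, was another, at 384 in CCI against 611 ± 35.9 (-0.66, limma adjusted p = 0.0439). The remaining 3 had no single symbol: L00088expanded_cds#2_at (-2.12, adjusted p = 0.00203), rc_AI176460_s_at (-0.84, adjusted p = 0.0379) and rc_AA859885_at (-0.69, adjusted p = 0.0379). L00088expanded_cds#2_at read 95.6, 128 and 141 in CCI against 1052, 763 and 740 in sham ganglia (log2 change -2.65, adjusted p = 4.45e-05). Which gene it reads was not tested. The 2 that were higher in CCI than in Seltzer ganglia were M13100cds#4_f_at (1.15, adjusted p = 0.00203) and X53581cds#3_f_at (0.65, adjusted p = 0.0112). Leaving out single arrays gave counts from 4, without sham replicate 2 or 3, to 23, without sham replicate 1.

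**Figure D5:**
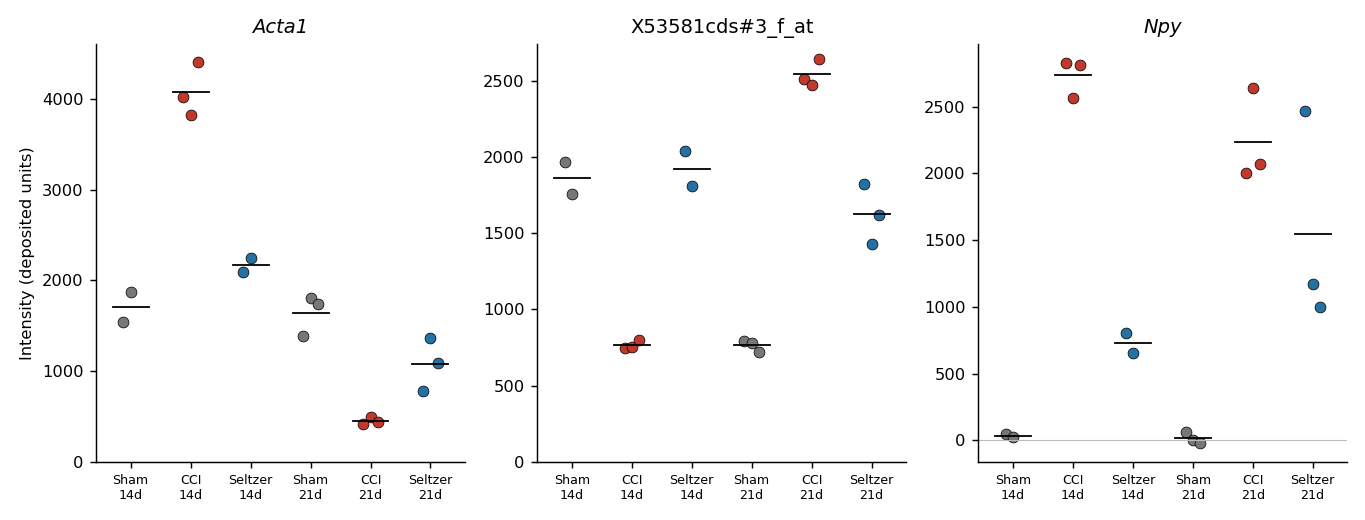
Intensity of Acta1, of the unnamed probe set X53581cds#3_f_at and of Npy on every array of the 14-day and 21-day groups, with a line at each group mean; the vertical axes include 0. Acta1 is high in CCI at 14 days and low at 21 days, X53581cds#3_f_at does the reverse, and Npy is high in CCI on both days and near 0 in sham ganglia.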

How the data were processed

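Total RNA of 20 rat dorsal root ganglion samples was read on 1 array each. The deposited intensity table has 8799 probe sets. The sources used here do not give the authors' software, background step or scaling; the 2% trimmed mean was 150 on every array. Array number limits the precision.

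Negative values became 0, and log2 was taken after 16 was added. limma 3.58.1 (lmFit, eBayes; R 4.3.3, statmod 1.5.0) fitted a mean for each of 8 groups over all 20 arrays, with 12 residual degrees of freedom (11 without CCI 21-day replicate 1). Tests were two-sided, with Benjamini-Hochberg adjustment over 8740 probe sets and a threshold of 0.05. Figures used Python 3.11.15 and matplotlib 3.10.9. The fit was tested on simulated data.

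A fold is the ratio of geometric mean intensities where the dimmer group exceeds background on all arrays. Otherwise it is "at least", with undetected arrays at their background level, and no fold is given where the brighter group is undetected or the bound is under 1. Log2 changes near background depend on the number added. The bounds depend on the percentile that sets the background. With a lower or higher percentile, 37 of 75 recomputed folds of named genes shifted by at least the SD of the brighter group on the log2 scale.

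Symbols came from the platform table: 7006 probe sets had 1 (6985 found in RefSeq), 308 several and 1426 none. In lists each of 4736 genes is its probe set with the highest mean. Genes named were the 15 largest rises and falls above 250, the 8 with the smallest adjusted p called only without CCI replicate 1, called and up to 3 further members of each list, and a fixed set; others were named after their values were seen. Members and lists were chosen with earlier results of these data known. Alternatives were other added numbers, floors, scalings, filters, array subsets, spread models and a replicate block. The 21-day CCI labels call the replicate number a lot batch; what it is a batch of is unstated.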

Additional observations from a re-analysis of the deposited data

Results flagged for a closer look

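The CCI effect at 21 days differed from that at 14 days, by limma's test of the difference between the days, at several genes named above. The difference, 21 minus 14 days on the log2 scale, was -6.04 for Ckm, -5.88 for Myl11, -3.86 for Atp2a1, -3.08 for Acta1 and, for Tpm1, -2.49 and -1.29 on separate probe sets, all muscle genes. It was -0.94 for Gpx4 and -0.65 for Nptx1, whose 14-day log2 changes were 0.07 and -0.02. Gpx4 averaged 724 at 14 days and 636 at 21 days in CCI, and 690 and 1177 in sham ganglia. Nptx1 averaged 527 and 495 in CCI, and 535 and 796 in sham ganglia. The difference between the days was positive for the remaining named genes. It was 3.13 for the probe set named Rpl19l4, 2.8 for the one named Crp and 1.15 for Jun, whose CCI means were alike on both days.

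CCI and Seltzer ganglia of 21 days differed, by the test of that difference, at Ckm (-3.17), Tpm1 (-1.28) and Acta1 (-1.2), all lower in CCI.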

How the results depend on the processing

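Called probe sets named by size or from the fixed set, 33 in all, were refitted under up to 23 alternatives. None changed sign. None stayed called under all, which was bound to be so because the replicate block with only the 6 arrays called no probe set. With values below 200 set to 200, the calls of Gfra1, Gadd45a, Jun, Myl11, Tesc, Ret and Vip were lost. At that setting Sst, Atp2a1 and Anxa5, uncalled in the main fit, passed as lower (limma adjusted p = 0.000254, 0.00485 and 0.0157). Of the uncalled genes, P2rx3 ran from -0.49 to 0.15 when single arrays were left out and Trpv1 from -0.38 to 0.68, and Trpv1 was -0.12 with values below 200 set to 200. The counts for CCI against sham, 81 with all arrays, 56 above 250 and 65 without CCI replicate 1, moved most with the arrays in the fit: 13, 8 and 11 with only the 6 compared, and 29, 23 and 12 with the 9 arrays of 21 days. Array weights gave 136, 91 and 111. Of probe sets above 250, 37 passed with arrays centred on their medians and 86 when p was adjusted over them alone. Centring moved the median change of all probe sets to -0.17 from 0. Leaving out single arrays gave 57 to 99, 41 to 54 and 60 to 90. The 21-day and 14-day effects differed at 157 probe sets, at 91 with median centring, at 344 with array weights and at 141 to 177 without single arrays.

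CCI differed from Seltzer ganglia at 10 probe sets, at 25 with quantile normalization, 4 with median centring, 22 with a mean over 250, 26 with a 21-day group above 250, 0 with the 9 arrays (434 at an unadjusted p under 0.05), 6 without the 50-day Seltzer arrays, 19 with trend and robust settings, 24 with array weights, 31 without both 21-day replicate 1 arrays and 4 to 23 without single arrays.

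Deviations of same-numbered CCI and sham arrays correlated at 0.0606, 0.0881 and 0.0931, none over 0.1, though each CCI array correlated best with its own number. The replicate block over 20 arrays gave 78, 56 and 64. With only the 6 arrays the replicate block gave 0, 0 and 0, where 519, 231 and 1054 had an unadjusted p under 0.05. Of the 81 called probe sets, 22 were above background on no array of the 6. The causes of these shifts were not tested.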

Other observations

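Some called genes had means of 250 or less in both groups and no place in the lists, and were named after their values were seen. On the higher side were Ptpro, a receptor phosphatase of neurons (244 in CCI against 71.7 in sham ganglia, log2 change 1.56, limma adjusted p = 0.000137), Acsl4, a ligase for polyunsaturated fatty acids (204 against 55.2, 1.57, adjusted p = 0.00621), and Mmp16, a membrane-bound metalloprotease (108 against 6.27, 2.34, adjusted p = 0.00308). All 3 also passed without CCI replicate 1 (adjusted p = 0.000718, 0.00819 and 0.0115). Acsl4 and Mmp16 were above background on no CCI or sham array, and Ptpro on 1 CCI array and no sham array. On the lower side Akr1b1, aldose reductase, averaged -6.08 and 228 (-2.25, adjusted p = 0.0496), and had an adjusted p of 5.66e-05 without that array.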
